A study of Homo sapiens with 8 samples.

Results

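The 9 genes described here encode angiogenic ligands, secreted or membrane-bound proteins through which cells act on blood vessels: VEGFA, VEGFB, VEGFC, PGF, FGF2, PDGFA, PDGFB, ANGPTL4 and EFNA1. They were chosen by gene symbol, and each symbol had 1 row among the 20263 genes of the deposited expression table. Of the 9, 8 were among the 11827 genes that reached a mean of 1 CPM (counts scaled to a common library total) over all libraries and were tested, and VEGFC was not. The cells were MHCC-97H, a human hepatocellular carcinoma line, grown in serum-containing medium, and the labels name no other cells in the cultures. The lenvatinib group had 1 library at each of 40, 60, 80 and 100 µM, and the DMSO group, which received the drug's solvent, had 4 libraries; treatment lasted 24 hours in both groups. Lenvatinib inhibits the kinases of the VEGF and FGF receptors and of PDGFRA, KIT and RET.

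VEGF-family ligands bind receptor tyrosine kinases on endothelial cells. VEGFA drives sprouting through KDR, VEGFB and PGF bind FLT1, and VEGFC acts on lymphatic endothelium through FLT4. FGF2 binds FGF receptors together with heparan sulfate, the PDGF chains act on mesenchymal cells and pericytes, the membrane-anchored ephrin EFNA1 binds EPHA2 on neighbouring cells, and ANGPTL4 inhibits lipoprotein lipase and modulates vessels. In hepatocellular carcinoma, tumour-derived VEGFA is a known stimulus of the dense arterial supply, and the receptors of several of these ligands are the targets of lenvatinib.

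The libraries held 10181973 to 37384578 counts. The 60 µM library was the shallowest, and 11076 genes had reads in it; that number was 13290 to 14167 at the other doses and 13590 to 14340 with DMSO. Libraries also differed in how their counts followed the GC content of genes. This was summarised as a GC slope, by how much a library's log2 values departed from the 8-library average for each 10 points of GC content. The slope was 0.67, 1.82, -0.58 and -0.60 at 40, 60, 80 and 100 µM, against 0.28, -0.50, -0.99 and -0.10 in DMSO libraries 1 to 4. Of 5 epithelial markers, the keratins KRT8 and KRT18 had 1332 CPM or more in every library, while CDH1 had 232 reads, EPCAM 125 and KRT19 4 in all libraries together. Of 8 hepatocyte markers TTR had 0 reads, SERPINA1 had 99 in all libraries together, and every read of ALB (6), AFP (2), APOA1 (10), APOA2 (7) and TF (4) lay in the 60 µM library. HNF4A, a hepatocyte transcription factor and the only one of the 8 that was tested, had 80, 8, 48 and 62 counts at 40, 60, 80 and 100 µM, against 241, 350, 286 and 277 counts with DMSO. Of the endothelial markers, KDR had 0 reads, PECAM1 had 4 and VWF, the only one tested, had 394, and the list of 6 summed to 0 to 0.770 TPM (the authors' length-scaled abundance) with lenvatinib and 0.361 to 0.898 TPM with DMSO. The labels do not say whether the libraries come from separate cultures, so p-values refer to the spread among libraries as sequenced, and that spread may be technical. In such bulk samples, fewer cells that make a transcript and less of it per cell cannot be told apart.

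The stretches of sequence that follow show the coding ends of the most GC-rich and the most GC-poor ligand. They also show what lies upstream of VEGFB and of PDGFA, the ligand with the highest fold change at 80 and 100 µM. Over its longest GENCODE v29 transcript VEGFB had 66.7% GC, more than 98.0% of the tested genes with a transcript, and FGF2 had 37.5%, more than 6.04% of them. The median of the tested genes was 49.1%, and the other ligands lay between 51.4% for VEGFC and 63.3% for ANGPTL4. The coding sequences of VEGFB and FGF2 were alike in GC, at 66.2% and 64.9%. Behind the stop codon VEGFB had 460 bases with 53.7% GC and FGF2 had 5840 bases with 33.0%. That part is not shown. The last 120 coding bases, 505 to 624 of VEGFB and 748 to 867 of FGF2 counted from the first base of each coding sequence, had 74.2% and 43.3% GC. These ends differ more in GC than the whole coding sequences do. Capitals mark G and C.
VEGFB coding end: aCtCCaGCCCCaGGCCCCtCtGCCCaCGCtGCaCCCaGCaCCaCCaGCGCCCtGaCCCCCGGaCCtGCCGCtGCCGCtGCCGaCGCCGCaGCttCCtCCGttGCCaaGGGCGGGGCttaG
FGF2 coding end: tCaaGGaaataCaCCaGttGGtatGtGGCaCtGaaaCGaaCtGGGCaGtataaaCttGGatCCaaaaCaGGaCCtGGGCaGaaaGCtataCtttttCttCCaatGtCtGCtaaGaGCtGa
RefSeq windows upstream of the start (GRCh38.p14) matched 7 of the 9 ligands. Shown are bases 250 to 101 before the start of VEGFB (chr11:64234334-64234483, plus strand) and PDGFA (chr7:520327-520476, minus strand), with capitals for the GC box GGGCGG on either strand, the motif of SP1-type factors. Each held 2 such matches, with overlapping matches counted separately, and 25.8% of 35116 windows of this length held at least 1. The windows of VEGFC and FGF2 also held 2, those of ANGPTL4 and EFNA1 1 each and that of PGF 0. These windows refer to RefSeq starts. Those of ANGPTL4 and EFNA1 lie within the gene as placed in the deposited table, and that of FGF2 reaches into it. PDGFA had 4 windows and PGF 2, and the window whose start lay nearest the deposited gene start was used. GC content was 80.7% in the VEGFB window and 64.0% in that of PDGFA, against a median of 56.0% over all windows. A match describes the letters only.
VEGFB upstream: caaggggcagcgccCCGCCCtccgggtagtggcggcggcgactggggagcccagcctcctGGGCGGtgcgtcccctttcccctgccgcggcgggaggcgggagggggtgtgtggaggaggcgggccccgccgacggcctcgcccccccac
PDGFA upstream: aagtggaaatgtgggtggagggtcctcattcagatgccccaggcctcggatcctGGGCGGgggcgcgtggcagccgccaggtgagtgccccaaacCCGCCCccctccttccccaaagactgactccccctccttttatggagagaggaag

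Per unit of transcript length, on the deposited TPM scale, the cells carried mostly VEGFB and EFNA1 mRNA. VEGFB averaged 182 ± 69.2 TPM with lenvatinib and 167 ± 48.0 TPM with DMSO (SD, n = 4 each), and EFNA1 averaged 95.4 ± 25.2 TPM with lenvatinib and 128 ± 25.5 TPM with DMSO. In the lenvatinib libraries PDGFA (20.6 ± 13.4 TPM), VEGFA (12.1 ± 6.56), PDGFB (7.44 ± 2.17), FGF2 (6.54 ± 4.98), ANGPTL4 (5.37 ± 1.06), PGF (1.76 ± 0.887) and VEGFC (0.651 ± 0.497) followed. In the DMSO libraries the order was PDGFA (15.7 ± 5.20 TPM), FGF2 (12.3 ± 10.8), VEGFA (11.5 ± 3.43), PDGFB (9.88 ± 1.01), ANGPTL4 (6.27 ± 1.32), PGF (1.75 ± 0.532) and VEGFC (0.823 ± 0.274). Among neighbours in these orders, EFNA1 lay above PDGFA, and ANGPTL4 above PGF, without overlap in both groups. PDGFB lay above ANGPTL4, and PGF above VEGFC, without overlap in the DMSO libraries only, and the ranges of all other neighbours overlapped. Compared within each lenvatinib library, PDGFA lay above VEGFA, VEGFA above PDGFB and PGF above VEGFC in all 4. For the other overlapping neighbours of either group the order held in 1 to 3 libraries. VEGFB made up 95.6, 97.0, 86.6 and 85.7% of the summed TPM of VEGFA, VEGFB, VEGFC and PGF at 40, 60, 80 and 100 µM, against 95.5, 90.5, 86.5 and 93.6% in DMSO libraries 1 to 4.

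**Figure D1:**
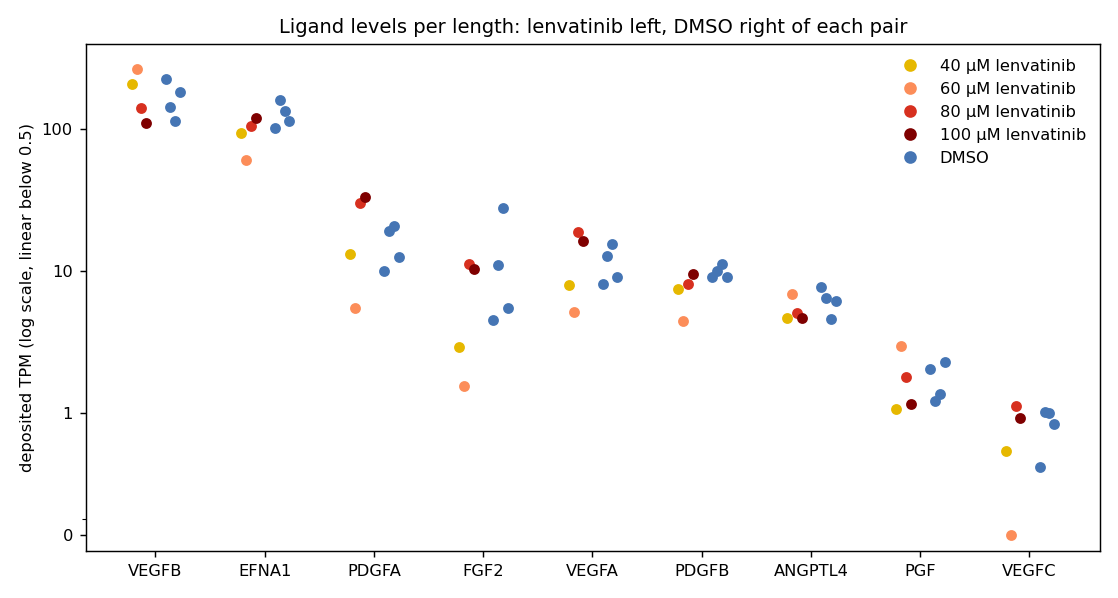
Deposited TPM of each ligand in every library (y axis, log scale and linear below 0.5 TPM), with lenvatinib left and DMSO right of each pair and genes ordered by their DMSO mean. VEGFB and EFNA1 lie above 60 TPM in every library, and VEGFC is at 0 in the 60 µM library.

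None of the 8 tested ligands passed the test of the lenvatinib group against the DMSO group, 4 libraries each. The edgeR quasi-likelihood test with Benjamini-Hochberg adjustment called 0 of 8 ligands and 0% of all 11827 genes; 523 genes (4.42%) and 0 ligands had an unadjusted p under 0.05. DESeq2 called 94 genes and limma-voom 0, with 0 ligands in either. The median log2 fold change was 0.24 over the 8 ligands and -0.11 over all tested genes. All values that follow are TMM-scaled CPM unless another scale is named.

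VEGFA, the principal endothelial growth factor, had 16.0, 17.2, 21.1 and 18.7 CPM at 40, 60, 80 and 100 µM, against 15.7, 14.8, 15.4 and 13.7 CPM in DMSO libraries 1 to 4. Every lenvatinib value lay above every DMSO value, as was so for 3.08% of all genes, and the 80 µM library was the highest. The exact 95% Poisson intervals were 14.4 to 17.7 CPM at 40 µM (375 reads) and 14.1 to 20.8 CPM at 60 µM (107 reads). Both reach into the DMSO range. The means were 18.3 ± 2.17 CPM with lenvatinib and 14.9 ± 0.895 CPM with DMSO (SD, n = 4 each), and edgeR gave 0.30 ± 0.28 (SE) for the log2 fold change with an adjusted p of 0.874. That separation held on this scale alone. Scaled by library totals, VEGFA had 12.5, 10.5, 27.0 and 23.7 CPM at 40, 60, 80 and 100 µM, against 13.4, 17.2, 20.3 and 13.4 CPM with DMSO, so that the 40 and 60 µM libraries were the lowest of all; on that scale 4.96% of genes had all lenvatinib libraries above DMSO. On the deposited TPM scale they were lowest too, with 8.04 and 5.18 TPM at 40 and 60 µM and 18.8 and 16.5 TPM at 80 and 100 µM, against 8.16 to 15.6 TPM with DMSO (4.84% of genes were separated in this way by TPM).

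VEGFB, which binds FLT1 and NRP1, had the highest mean TPM of the ligands in both groups. It had 225, 372, 80.6 and 65.5 CPM at 40, 60, 80 and 100 µM, against 217, 93.0, 59.6 and 147 CPM in DMSO libraries 1 to 4. The 40 and 60 µM libraries lay above the DMSO range and the 80 and 100 µM libraries inside it. Its mean was 186 ± 144 CPM with lenvatinib and 129 ± 68.7 CPM with DMSO (SD, n = 4 each), and edgeR gave 0.53 ± 0.63 for the log2 fold change with an adjusted p of 0.874. Without the 60 µM library the log2 fold change was -0.06 ± 0.57.

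PGF, placental growth factor, and VEGFC were scarce. PGF had 35, 38, 64 and 42 counts at 40, 60, 80 and 100 µM, against 72, 41, 41 and 82 counts with DMSO. These correspond to 1.50, 6.12, 1.34 and 0.951 CPM with lenvatinib and 2.61, 1.15, 0.985 and 2.44 CPM with DMSO. The 60 µM library alone lay above the DMSO range, and the 100 µM library lay just below it. At 60 µM the exact 95% Poisson interval, which covers counting error only, was 4.33 to 8.39 CPM. The log2 fold change of PGF was 0.42 ± 0.72 (edgeR adjusted p = 0.874), and without the 60 µM library it was -0.50 ± 0.48. VEGFC, the lymphatic ligand, had 22, 0, 49 and 38 counts with lenvatinib, against 18, 37, 34 and 36 counts with DMSO, and its mean of 0.879 CPM of library totals kept it out of the test. Apart from the 60 µM library, where a count of 0 allows up to 0.483 CPM (3 counts), the VEGFC values of 0.941, 1.02 and 0.861 CPM at 40, 80 and 100 µM lay inside the DMSO range of 0.652 to 1.07 CPM.

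FGF2, a heparin-binding growth factor released without a signal peptide, ran the other way from VEGFB across libraries. It had 9.28, 6.76, 20.3 and 18.8 CPM at 40, 60, 80 and 100 µM, against 12.7, 23.5, 47.3 and 13.7 CPM in DMSO libraries 1 to 4. The 40 and 60 µM libraries lay below the DMSO range, and the 80 and 100 µM libraries inside it. The log2 fold change was -0.81 ± 0.56 (edgeR adjusted p = 0.874). Exons of FGF2 overlap those of NUDT6 on the opposite strand, and since the strandedness of the libraries is not given in the sources used here, reads of the overlap cannot be told apart; NUDT6 had 403 counts in all libraries together, against 5681 for FGF2. Exons of VEGFA and ANGPTL4 likewise overlap the antisense genes AL136131.3 and RAB11B-AS1, which were not analysed here.

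PDGFA and PDGFB, the chains that pair into PDGF dimers, stood on opposite sides of the DMSO range at the 2 highest doses. PDGFA had 23.1, 8.53, 27.4 and 31.2 CPM at 40, 60, 80 and 100 µM, against 15.6, 19.7, 16.6 and 15.5 CPM in DMSO libraries 1 to 4. It was above the DMSO range at 40, 80 and 100 µM and below it at 60 µM, where 53 reads gave an exact 95% Poisson interval of 6.39 to 11.2 CPM. PDGFA averaged 22.5 ± 9.91 CPM with lenvatinib and 16.8 ± 1.97 CPM with DMSO (SD, n = 4 each), and edgeR gave 0.42 ± 0.41 for the log2 fold change with an adjusted p of 0.874. Leaving out the 60 µM library gave 0.71 ± 0.22 (edgeR adjusted p = 0.755). PDGFB, the chain that recruits pericytes, had 21.1, 16.3, 11.2 and 12.9 CPM with lenvatinib, against 21.4, 16.5, 14.3 and 18.3 CPM with DMSO. Its 80 and 100 µM values lay below the DMSO range and the other 2 inside it, and the log2 fold change was -0.20 ± 0.34 (edgeR adjusted p = 0.874). By library totals, PDGFB had 16.4, 9.92, 14.3 and 16.4 CPM with lenvatinib, against 18.3, 19.1, 18.9 and 17.9 CPM with DMSO. On that scale all 4 lenvatinib values lay below all DMSO values, as for 3.49% of all genes.

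ANGPTL4, a PPAR and hypoxia target that inhibits lipoprotein lipase, had 6.80, 13.7, 4.14 and 3.96 CPM at 40, 60, 80 and 100 µM, against 10.0, 5.34, 3.19 and 6.52 CPM in DMSO libraries 1 to 4. The 60 µM value alone lay outside the DMSO range, above it. The log2 fold change was 0.18 ± 0.57 (edgeR adjusted p = 0.911), and it was -0.33 ± 0.45 without the 60 µM library and -0.09 with scaling by library totals. EFNA1, the ephrin ligand of EPHA2, had 145, 123, 87.6 and 102 CPM with lenvatinib, against 143, 149, 98.2 and 132 CPM with DMSO. Only the 80 µM value lay outside the DMSO range, below it, and the log2 fold change was -0.19 ± 0.27 (edgeR adjusted p = 0.874).

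**Figure D2:**
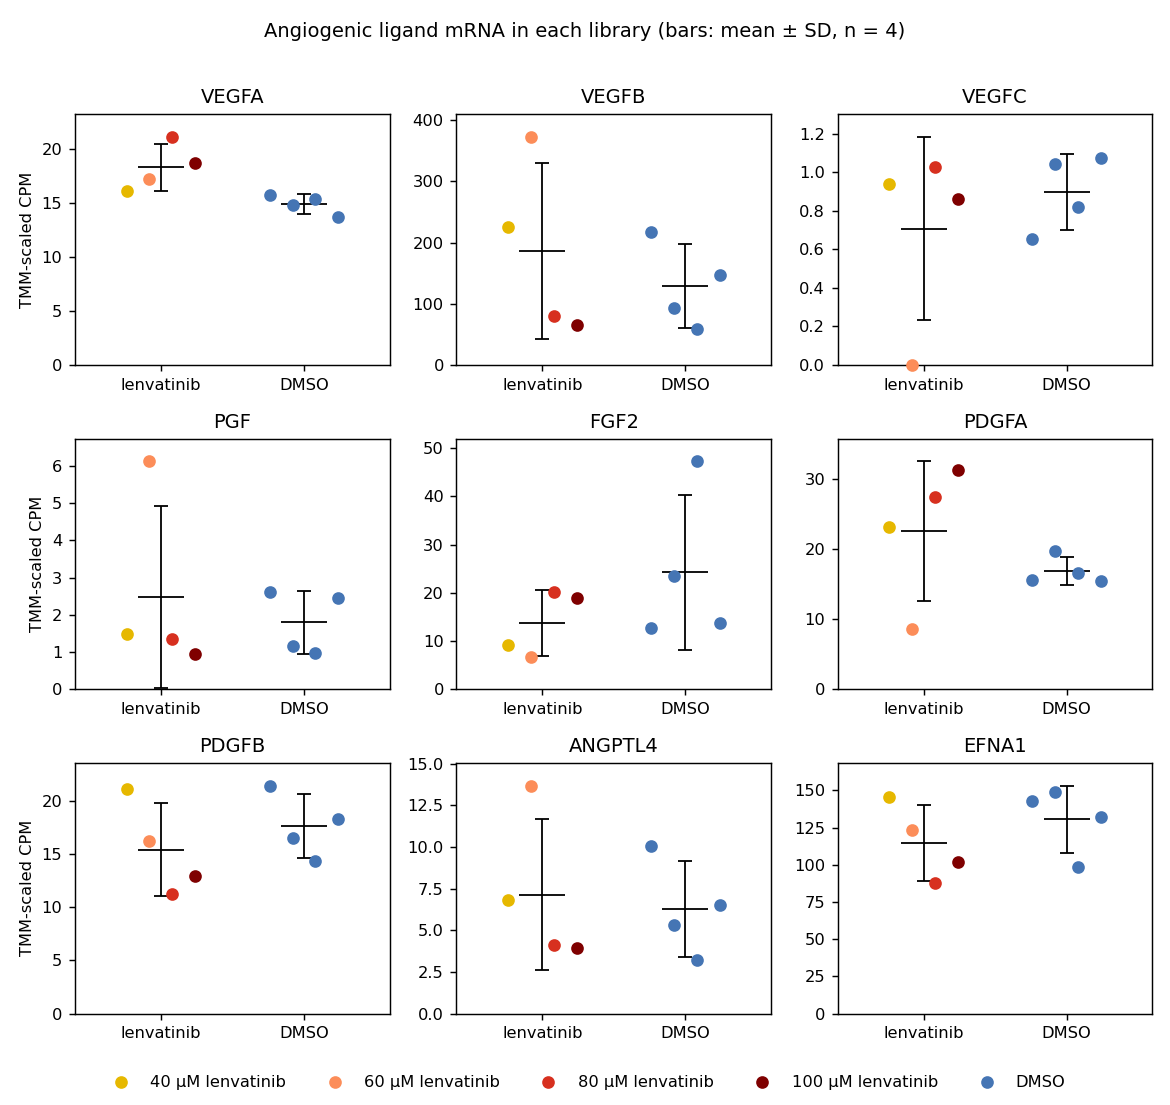
TMM-scaled CPM of the 9 ligands in each library, lenvatinib left and DMSO right; black marks show the mean ± SD of 4 libraries. All 4 lenvatinib points of VEGFA lie above the DMSO points on this scale, though not by library totals or TPM, while VEGFB, PGF and ANGPTL4 are highest and FGF2 and PDGFA lowest at 60 µM.

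No dose slope of a ligand within the lenvatinib group passed the test. The edgeR test of the log2 change per 20 µM called 0 of 8 ligands and 0% of all genes, with 875 genes (7.4%) and 0 ligands at an unadjusted p under 0.05. VEGFB had the steepest slope, -0.82 ± 0.37 per 20 µM (edgeR adjusted p = 0.295), and -0.12 ± 0.13 with the libraries' GC slopes as a covariate. The slopes were 0.10 for VEGFA, -0.61 for PGF, 0.45 for FGF2, 0.24 for PDGFA, -0.26 for PDGFB, -0.46 for ANGPTL4 and -0.20 for EFNA1. With the covariate 0% of genes were called as well (287, or 2.43%, at an unadjusted p under 0.05), and the slopes of PGF, FGF2, PDGFA and ANGPTL4 turned sign, and with scaling by library totals those of PDGFB and EFNA1 did.

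Levels of 4 of the 8 tested ligands followed the libraries' GC slopes, as did those of 75% of all tested genes, so this count is not particular to the ligands. The correlation of log2 CPM with the GC slope was computed over the 8 libraries for each of the 11827 genes, with exact two-sided permutation p-values and Benjamini-Hochberg adjustment over all of them; 31.6% of genes were called with a positive r and 43.4% with a negative one, and 77% had an unadjusted p under 0.05. The slopes were themselves computed from these genes. VEGFB, the ligand with the most GC-rich transcript, had Pearson r = 0.955 (exact permutation p = 2.48e-05, the smallest the permutations can give; adjusted 2.74e-04) and Spearman rho = 1 (exact permutation p = 4.96e-05, also the smallest possible). For ANGPTL4 r was 0.919 (exact permutation p = 9.92e-04; adjusted 0.00197) and rho 0.976 (p = 3.97e-04). PGF had r = 0.883 (exact permutation p = 0.00799; adjusted 0.0124) and rho = 0.881 (p = 0.00724), and FGF2, the most GC-poor ligand, had r = -0.913 (exact permutation p = 0.00144; adjusted 0.00271) and rho = -0.905 (p = 0.00456). Leaving out the 60 and 40 µM libraries, which lie farthest from the median slope, r was 0.974 for VEGFB, 0.980 for ANGPTL4, 0.914 for PGF and -0.894 for FGF2.

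The other 4 relations did not pass. PDGFA had r = -0.680 (exact permutation p = 0.0668; adjusted 0.0843) and rho = -0.548 (p = 0.171), with r = -0.412 without those 2 libraries. For PDGFB r was 0.491 (exact permutation p = 0.217; adjusted 0.246) and rho 0.643 (p = 0.0962), with 0.770 without them. EFNA1 had r = 0.454 (exact permutation p = 0.263; adjusted 0.294) and rho = 0.548 (p = 0.171), with 0.668 without them. VEGFA showed r = -0.031 (exact permutation p = 0.940; adjusted 0.948) and rho = -0.024 (p = 0.977), with -0.300 without them. The part of the GC slopes in the fold changes of single ligands was not tested beyond the fits with the covariate.

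**Figure D3:**
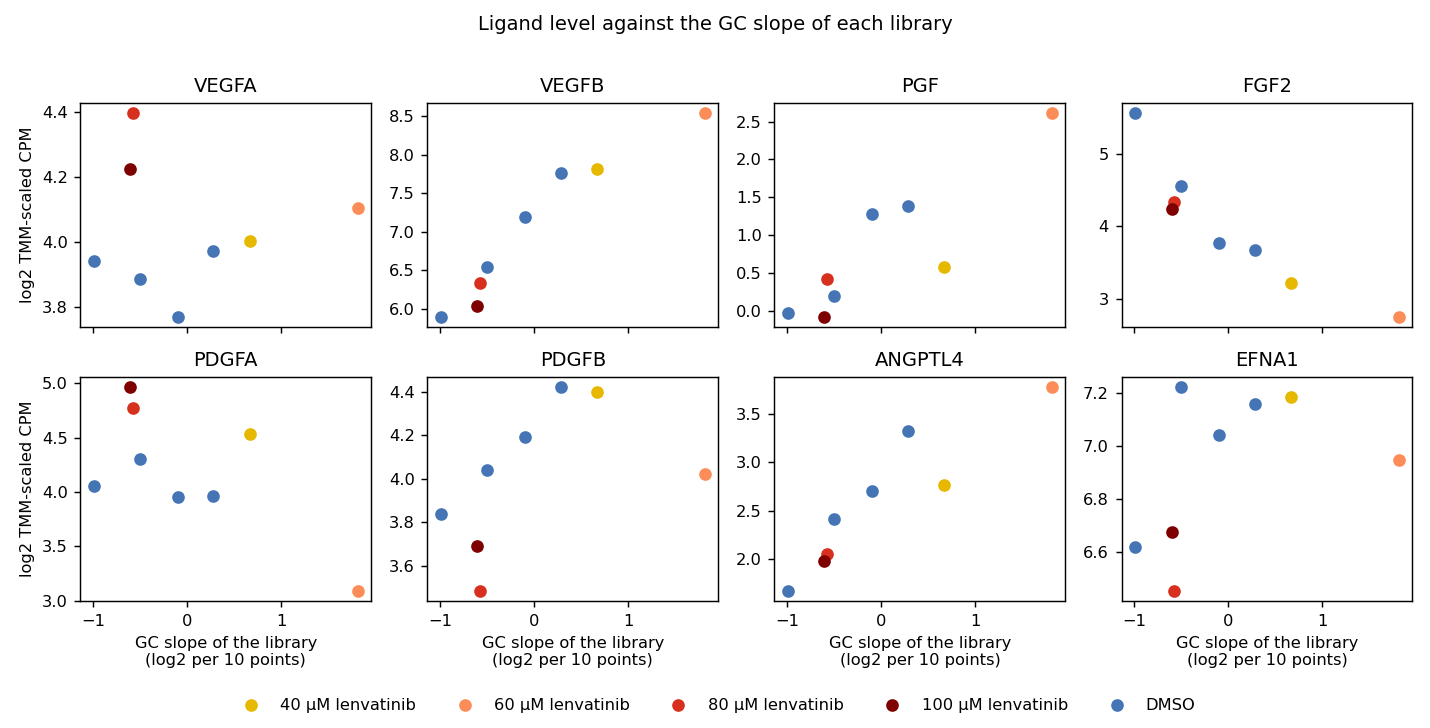
log2 TMM-scaled CPM of the 8 tested ligands (y axis) against the GC slope of each library (x axis, log2 deviation per 10 percentage points of GC). VEGFB and ANGPTL4 climb with the slope and FGF2 declines in lenvatinib and DMSO libraries alike, while the 80 and 100 µM points of VEGFA and PDGFA lie above DMSO libraries of similar slope.

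With the GC slope as a covariate and all 8 libraries, edgeR called 0 of 8 ligands, against 386 of all genes (3.26%; 175 or 1.48% higher and 211 or 1.78% lower). In this fit PDGFA had a log2 fold change of 0.66 ± 0.22 (adjusted p = 0.141) and VEGFA 0.35 ± 0.14 (adjusted p = 0.215). The other 6 were all negative, from -0.26 ± 0.28 for FGF2 (adjusted p = 0.640) to -0.45 ± 0.33 for PGF (adjusted p = 0.476), so VEGFB, PGF and ANGPTL4 changed sign against the fit without the covariate. The median of the 8 ligands was -0.36, against -0.06 over all tested genes. Single libraries moved these calls: leaving out the 40, 60, 80 or 100 µM library gave 1006, 2770, 0 and 9 called genes, against 26, 66, 215 and 18 when one of DMSO libraries 1 to 4 was left out. Without 60 µM, PDGFA (0.74 ± 0.12, edgeR adjusted p = 0.00322) and VEGFB (-0.31 ± 0.09, edgeR adjusted p = 0.0334) were called. These were 2 of the 8 ligands, beside 2770 of all 11864 genes tested in that fit.

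Set against the DMSO range 1 dose at a time, the 8 tested ligands gave the following counts, beside the shares of all genes. At 40 µM 3 lay above (34.2% of all genes) and 1 below (38.6%), and at 60 µM 4 lay above (34.8%) and 2 below (52.7%). At 80 µM 2 lay above (14.4%) and 2 below (16.2%), and at 100 µM 2 lay above (13.2%) and 2 below (15.1%). VEGFA alone was above at every dose on this TMM scale.

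VEGFA and PDGFA were above all DMSO libraries at both 80 and 100 µM on each of the 3 scales. The 2 libraries had GC slopes inside the DMSO range, and both lay above DMSO for 9.9% of genes on the TMM scale, 17.6% by library totals and 15.7% by deposited TPM. PDGFB was below DMSO at both doses on the TMM scale (11.4% of genes) and by library totals (7.73%), but not by deposited TPM (7.98%). By deposited TPM, PDGFA had 30.3 and 33.3 TPM at 80 and 100 µM, against 10.2, 19.2, 21.0 and 12.6 TPM with DMSO. Relative to DMSO libraries 2 and 3, the nearest to them in GC slope, the mean TMM-scaled CPM at 80 and 100 µM was 1.61 times as high for PDGFA and 1.32 times as high for VEGFA; both libraries lay above those 2 for 19.2% of genes. The same ratio was 1.07 for PGF, 1.02 for VEGFC, 0.958 for VEGFB, 0.950 for ANGPTL4, 0.784 for PDGFB, 0.767 for EFNA1 and 0.553 for FGF2. DMSO library 3, with a GC slope of -0.99, lay farther from the 80 and 100 µM libraries (-0.58 and -0.60) than DMSO library 2 (-0.50). FGF2 had 23.5 and 47.3 CPM in DMSO libraries 2 and 3, against 20.3 and 18.8 CPM at 80 and 100 µM. VEGFB had 93.0 and 59.6 CPM there, on either side of its 80.6 and 65.5 CPM at 80 and 100 µM.

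Tested against DMSO without the covariate, the 80 and 100 µM libraries gave 0 called ligands and 0% of genes called by edgeR (905 genes, 7.65%, at an unadjusted p under 0.05, PDGFA among them). PDGFA then had 0.83 ± 0.22 (adjusted p = 0.405) and VEGFA 0.45 ± 0.22 (adjusted p = 0.698). A fit with both the 80 and 100 µM restriction and the GC slope covariate, added after the data had been seen, called 2460 genes (20.8%; 9.72% higher and 11.1% lower) and 2 of the 8 ligands, both higher. In that edgeR fit PDGFA rose by 0.80 ± 0.13 on the log2 scale (adjusted p = 0.00760) and VEGFA by 0.45 ± 0.12 (adjusted p = 0.0387). PDGFB had -0.38 ± 0.12 (adjusted p = 0.0612), FGF2 -0.48 ± 0.16 (adjusted p = 0.0737) and VEGFB -0.24 ± 0.09 (adjusted p = 0.105). EFNA1 had -0.33 ± 0.15 (adjusted p = 0.172), ANGPTL4 -0.16 ± 0.17 (adjusted p = 0.550) and PGF -0.17 ± 0.33 (adjusted p = 0.753). This fit rests on 2 lenvatinib libraries of different dose and leaves 3 residual degrees of freedom.

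Marker genes moved in the same fits. Over all doses without the covariate 0 of the 8 tested markers were called. HNF4A averaged 1.78 ± 1.11 CPM with lenvatinib and 8.42 ± 1.23 CPM with DMSO (SD, n = 4 each). All its lenvatinib values lay below DMSO, as for 3.38% of genes, and edgeR gave -2.24 ± 0.52 for the log2 fold change (adjusted p = 0.874). With the covariate 2 of the 8 were called (3.26% of all genes), both lower: HNF4A (-2.42 ± 0.40, edgeR adjusted p = 0.0229) and the leukocyte marker CD68 (-1.19 ± 0.20, edgeR adjusted p = 0.0240). At 80 and 100 µM with the covariate 6 of the 8 were called (20.8% of all genes). HNF4A (-2.72), CD68 (-1.11), KRT8 (-0.83), KRT18 (-0.92) and the pericyte marker PDGFRB (-0.78) were lower. COL1A1, a fibroblast collagen, was higher (0.36), while VWF and DCN were not called. The other listed fibroblast and pericyte markers were not tested: COL1A2 had 0 reads, COL3A1 101 and LUM 87 in all libraries together. The defining leukocyte markers PTPRC and CD3E had 0 reads, and the 5 leukocyte markers summed to 4.36 to 6.68 TPM with lenvatinib and 7.77 to 9.74 TPM with DMSO. The part of these shifts in the ligand values was not tested.

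**Figure D4:**
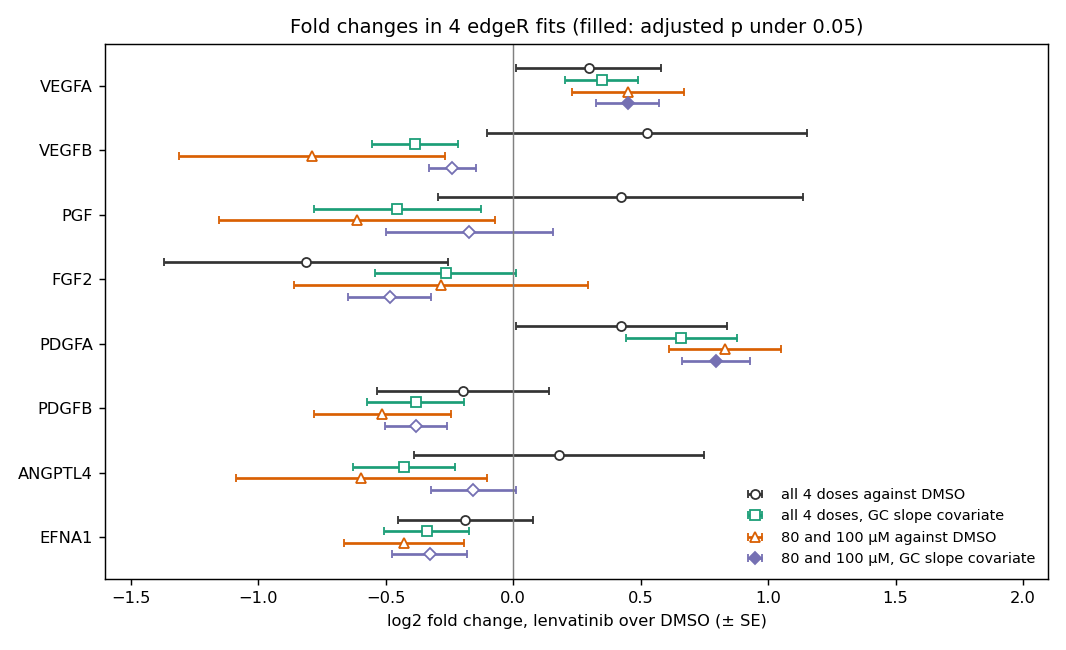
log2 fold change of lenvatinib over DMSO (x axis, ± SE) for the 8 tested ligands in 4 edgeR fits; filled marks have an adjusted p under 0.05. PDGFA and VEGFA are positive in each fit and filled only in the fit of 80 and 100 µM with the GC slope covariate, and VEGFB, PGF and ANGPTL4 are positive only in the fit of all doses without it.

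Ratios of ligand counts within a library do not depend on a factor that scales all its counts alike. They can differ from ratios of deposited TPM, and they can still depend on the library's GC slope. The r with that slope was 0.955 for VEGFB, -0.031 for VEGFA, -0.680 for PDGFA and 0.491 for PDGFB. The part of the GC slopes in the ratios was not tested. PDGFA counts divided by PDGFB counts were 1.09, 0.525, 2.44 and 2.41 at 40, 60, 80 and 100 µM, against 0.729, 1.20, 1.16 and 0.847 in DMSO libraries 1 to 4. The 80 and 100 µM libraries lay above the DMSO range, the 40 µM library inside it and the 60 µM library below it. For the ratio of deposited TPM, the 80 and 100 µM libraries again lay above the DMSO range, but the 60 µM library lay inside it. VEGFB counts divided by VEGFA counts were 14.0, 21.6, 3.83 and 3.51 with lenvatinib, against 13.8, 6.29, 3.88 and 10.7 with DMSO. Here the 40 and 60 µM libraries lay above and the 80 and 100 µM libraries below the DMSO range of the count ratio. For the ratio of deposited TPM, the 60 µM library lay above and the 100 µM library below the DMSO range. The 40 and 80 µM libraries lay inside it, so their position depended on the scale. These ratios are given as descriptions, without a test.

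**Figure D5:**
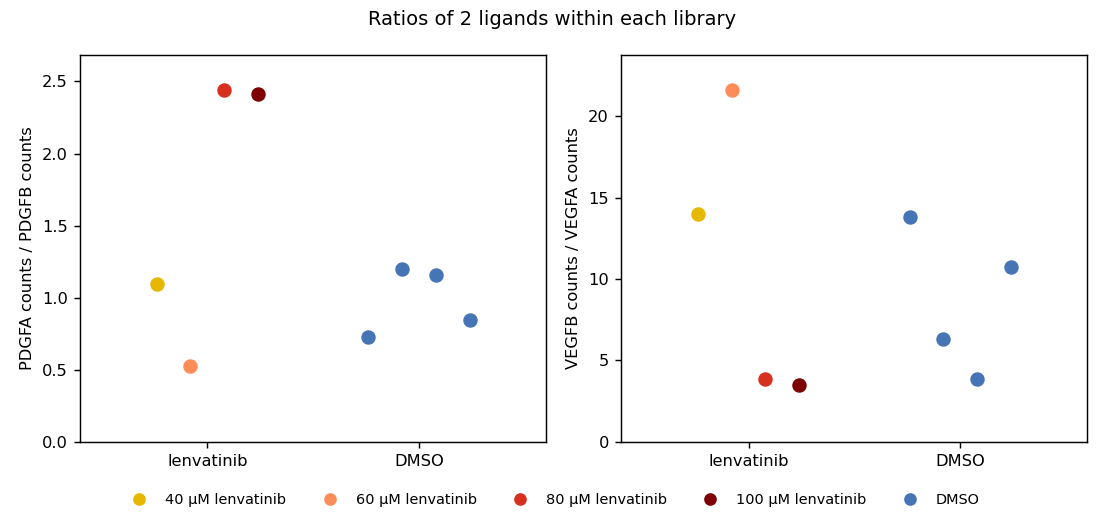
Counts of PDGFA divided by those of PDGFB (left panel) and of VEGFB divided by those of VEGFA (right panel) in each library, lenvatinib left and DMSO right. The PDGFA to PDGFB ratio is 2.44 and 2.41 at 80 and 100 µM, against 0.729 to 1.20 with DMSO.

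The receptor kinases of the VEGF ligands had no reads in these cells. Of 20 receptor genes, FLT1, KDR, FLT4 and PDGFRA, along with EPHA3 and EPHA4, had 0 reads in all 8 libraries, and 11 were tested. None was called over all doses (median log2 fold change -0.30). With the covariate 1 of 11 was called, against 3.26% of all genes: EPHA2, the receptor of EFNA1, was lower by edgeR (-0.75 ± 0.12 on the log2 scale, adjusted p = 0.0229); it averaged 181 ± 72.3 CPM with lenvatinib and 232 ± 54.9 CPM with DMSO (SD, n = 4 each). In the fit of 80 and 100 µM with the covariate, 2 of 11 receptors were called (20.8% of all genes; 11.1% lower), both lower: EPHA2 (-0.72 ± 0.06, edgeR adjusted p = 7.00e-04) and the PDGFB receptor PDGFRB (-0.78 ± 0.14, edgeR adjusted p = 0.00962). PDGFRB had 17.9 and 21.7 CPM at 80 and 100 µM, against 39.6, 39.7, 28.6 and 41.7 CPM with DMSO. FGFR3 averaged 62.3 ± 10.5 CPM with lenvatinib and 51.6 ± 5.12 CPM with DMSO, and FGFR4, the FGF19 receptor of hepatocytes, averaged 91.2 ± 76.4 CPM with lenvatinib and 58.1 ± 26.3 CPM with DMSO; neither was called in the fits of all doses, with or without the covariate, or in that of 80 and 100 µM with it.

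Among other angiogenic ligands, 25 of 27 listed symbols were in the table and 11 were tested, with 0 called over all doses (median 0.14). EDN1, the vasoconstrictor endothelin, had 8.25, 2.58, 9.22 and 10.1 CPM at 40, 60, 80 and 100 µM, against 13.8, 20.1, 23.5 and 13.5 CPM with DMSO. All 4 lenvatinib values lay below DMSO on the TMM scale, as for 3.38% of genes, but by library totals the groups overlapped. The log2 fold change of EDN1 was -1.22 ± 0.48 (edgeR adjusted p = 0.874). CYR61, a matricellular integrin ligand also known as CCN1, averaged 147 ± 14.3 CPM with lenvatinib and 203 ± 32.1 CPM with DMSO. Its lenvatinib values all lay below DMSO on the TMM scale, as for 3.38% of genes, and by library totals, as for 3.49%. The log2 fold change of CYR61 was -0.47 ± 0.24 (edgeR adjusted p = 0.874). ADM, the vasodilator adrenomedullin, averaged 14.5 ± 7.62 CPM with lenvatinib and 9.45 ± 2.58 CPM with DMSO, and the ephrin EFNB1 averaged 11.3 ± 3.07 CPM with lenvatinib and 8.56 ± 1.70 CPM with DMSO, both with overlap. In the fit of 80 and 100 µM with the covariate 4 of 11 were called, all lower (20.8% of all genes were called and 11.1% lower): EDN1 (-0.98), TYMP (-0.70), EFNA3 (-0.89) and CYR61 (-0.37). TYMP, the platelet-derived endothelial growth factor, was the only one of the 11 called over all doses with the covariate, against 3.26% of all genes (-0.72 ± 0.16, edgeR adjusted p = 0.0490). ANGPT1 and CXCL12 had 0 reads, and CXCL8 had 17 in all libraries together.

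Of 12 secreted inhibitors of angiogenesis, 7 were tested and 0 called over all doses (median -0.14). TIMP3, which blocks VEGFA binding to KDR and inhibits metalloproteinases, averaged 94.4 ± 8.40 CPM with lenvatinib and 75.9 ± 9.83 CPM with DMSO. The log2 fold change of TIMP3 was 0.31 ± 0.22 (edgeR adjusted p = 0.874). All 4 lenvatinib values lay above DMSO on the TMM scale, as for 3.08% of genes. By library totals the 60 µM value lay below DMSO. COL18A1, the source of endostatin, averaged 130 ± 35.4 CPM with lenvatinib and 103 ± 17.3 CPM with DMSO. The protease ADAMTS1 averaged 6.82 ± 4.92 CPM with lenvatinib and 12.1 ± 6.41 CPM with DMSO, and both genes overlapped between the groups. With the covariate 1 of 7 was called, against 3.26% of all genes: SEMA3F, a neuropilin ligand that repels endothelial cells, lower over all doses (-1.01 ± 0.20, edgeR adjusted p = 0.0376). At 80 and 100 µM with the covariate SEMA3F (-1.04 ± 0.09, edgeR adjusted p = 7.46e-04) was lower and TIMP3 (0.36 ± 0.09, edgeR adjusted p = 0.0303) higher, 2 of 7, against 20.8% of all genes called. Of 10 genes for the processing and handling of ligands, 6 were tested and 0 called over all doses with or without the covariate (medians 0.06 and 0.27). At 80 and 100 µM with the covariate 2 of the 6 were called, both higher (20.8% of all genes were called and 9.72% higher): LPL, the lipase that ANGPTL4 inhibits (0.77 ± 0.10, edgeR adjusted p = 0.00288), and HPSE, the heparanase that frees FGF2 from matrix (0.64 ± 0.17, edgeR adjusted p = 0.0347). HSPG2, the matrix proteoglycan perlecan, averaged 841 ± 668 CPM with lenvatinib and 417 ± 58.7 CPM with DMSO, with 1820 CPM in the 60 µM library, and the proteases FURIN and PCSK6 overlapped between the groups as well.

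VEGFA and ANGPTL4 are textbook targets of hypoxia-inducible factors, and all 16 genes listed for those factors and their targets were tested. None was called over all doses (median -0.41, against -0.11 for all genes). LDHA, lactate dehydrogenase A, averaged 503 ± 161 CPM with lenvatinib and 946 ± 126 CPM with DMSO, without overlap. EPAS1, which encodes HIF-2 alpha, averaged 58.3 ± 18.4 CPM with lenvatinib and 97.5 ± 15.4 CPM with DMSO (SD, n = 4 each), also without overlap. On this TMM scale 3.38% of all genes lay below DMSO in this way. By library totals LDHA stayed below DMSO, as for 3.49% of genes, and EPAS1 overlapped with it. With the covariate CA9, NDRG1 and SLC2A1 were called lower over all doses, 3 of 16 (1.78% of all genes were called lower). At 80 and 100 µM with the covariate 5 of 16 were called, all lower (20.8% of all genes were called and 11.1% lower): LDHA (-0.55), EPAS1 (-0.53), NDRG1 (-0.66), SLC2A1 (-0.63) and CA9. The CA9 counts were 2, 10, 0 and 0 at 40, 60, 80 and 100 µM, against 37, 110, 21 and 69 with DMSO. For PPAR factors and targets, to which ANGPTL4 also belongs, 8 of 12 were tested (median -0.14) and 0 called over all doses with or without the covariate. PPARG averaged 5.66 ± 3.18 CPM with lenvatinib and 12.6 ± 1.52 CPM with DMSO. Its groups did not overlap on the TMM scale, as for 3.38% of genes, but overlapped by library totals. PPARG was called lower at 80 and 100 µM with the covariate (-0.78 ± 0.17, edgeR adjusted p = 0.0181). In the same fit, which called 20.8% of all genes, PPARD (0.51 ± 0.09, edgeR adjusted p = 0.0111) and PDK4 (0.61 ± 0.15, edgeR adjusted p = 0.0255) were called higher. ACADVL averaged 315 ± 125 CPM with lenvatinib and 183 ± 34.0 CPM with DMSO, and RXRA 182 ± 102 CPM with lenvatinib and 107 ± 20.1 CPM with DMSO; neither was called in these fits.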

How the data were processed

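Read counts, TPM and FPKM were deposited for 8 libraries of MHCC-97H cells, per the file headers. Per the submitters' processing notes, FastQC, HISAT2, bedtools and StringTie were used on GRCh38; the sources used here give neither their versions nor the strandedness. The deposited counts, whole numbers per gene, were analysed, the TPM deposited by the authors served for levels between genes, and the authors' FPKM was not used.

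Genes averaging 1 CPM of library totals or more were tested with edgeR 4.0.16 under R 4.3.3 (TMM factors 0.610 to 1.32, quasi-likelihood fit with robust moderation, Benjamini-Hochberg adjusted p under 0.05), as lenvatinib over DMSO (6 residual degrees of freedom) and as log2 change per 20 µM centred at 70 µM (5 residual degrees of freedom). Since each dose has 1 library, differences between doses count as spread in the first comparison. GC content is that of the longest GENCODE v29 transcript (4 tested genes had none), and library GC slopes use log2 CPM with a prior count of 2; a first choice of 0.5 was replaced after its count of calls was seen. Both tests, without the covariate, were checked on simulated counts with the same dispersion for every gene and no GC slope. The fits with the covariate were not checked in this way. Alternatives used DESeq2 1.42.0, limma 3.58.1, other scalings and filters, the GC slope covariate, a replicate block and left-out libraries. The members, the gene lists and the tests were chosen with earlier results of these data known. All members are named, with up to 4 genes of each pathway list by smallest p in the comparison of all doses and further list and marker genes that were called or had no or few reads. Of the genes most like a ligand in level, 1 is not reported here. Intervals and limits cover counting error only.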

Additional observations from a re-analysis of the deposited data

Results flagged for a closer look

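In the lenvatinib group, the 60 µM library stood far from the other 3 for 2 ligands. VEGFC was at 0 CPM there, against 0.861 to 1.02 CPM at 40, 80 and 100 µM. PGF was at 6.12 CPM there, against 0.951 to 1.50 CPM at the other doses. The gap to the nearest library was 0.841 of the range for VEGFC and 0.894 for PGF, above Dixon's 95% critical value for 4 samples. Both flags fell on the shallowest library, which also had the highest GC slope. The 4 libraries of this group had different doses, and 18 groups were examined, of which chance flags about 1 in 20.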

How the results depend on the processing

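The count of genes called between lenvatinib and DMSO was 0, and it stayed 0 with limma-voom, DESeq2 size factors, scaling by library totals, no filter, a filter at 5 CPM, the replicate block, the 80 and 100 µM libraries only, and each library left out. It was 94 with DESeq2, 386 with the GC slope covariate, 315 with GC slopes from values with a prior count of 0.5, 232 with the replicate block and the covariate, and 2460 at 80 and 100 µM with the covariate. With the covariate and each library left out it ran from 0 (without 80 µM) to 2770 (without 60 µM); it was 9 without 100 µM, 1006 without 40 µM, and 26, 66, 215 and 18 without DMSO 1 to 4. The cause was not tested. Of 303 values of single ligands, 248 kept their direction and call, 3 became called in the same direction (PDGFA without 60 µM with the covariate, and PDGFA and VEGFA at 80 and 100 µM with it) and 52 turned sign, of which VEGFB without 60 µM with the covariate was also called (-0.31). No pairing by replicate number was evident: deviations of same-numbered libraries correlated at 0.52, -0.44, 0.82 and -0.57, and 2 of 4 lenvatinib libraries correlated best with their own number. Since each lenvatinib number is also a dose and libraries differ in GC slope, these values cannot decide whether numbers pair the libraries. VEGFB, PGF and ANGPTL4 turned negative with the covariate (-0.39, -0.45 and -0.43; -0.40, -0.48 and -0.44 with a prior count of 0.5), with the replicate block and the covariate (-0.37, -0.70 and -0.37), at 80 and 100 µM (-0.79, -0.61 and -0.60) and there with the covariate (-0.24, -0.17 and -0.16). Under limma-voom PGF was at -0.090 and ANGPTL4 at -0.091, and by library totals ANGPTL4 was at -0.086. With each library left out, values ran from -0.061 to 0.90 for VEGFB, -0.50 to 0.70 for PGF and -0.33 to 0.50 for ANGPTL4, and with the covariate from -0.47 to -0.27, -0.74 to -0.30 and -0.51 to -0.28. Dose slopes were called for 0 genes in each setting; those that turned sign were PGF (0.33), FGF2 (-0.11), PDGFA (-0.10) and ANGPTL4 (0.16) with the covariate, and PDGFB (0.040) and EFNA1 (0.11) by library totals. Depth limits VEGFC and PGF most, with 0 to 82 counts a library.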

Other observations

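Genes whose levels ran most like those of each ligand were found by Pearson r of log2 CPM over the 8 libraries, as a description. VEGFB was closest to FCHO1 and SPRYD3 (r = 0.998 each), and 2481 tested genes had r above 0.9 with it; ANGPTL4 had 1875 such genes, C21orf33 (0.988) among the closest. FGF2 was closest to GOLGA4 (0.995) and CHML (0.989), with 1153 genes. PGF was closest to SH3RF2 (0.968) and AL512785.2 (0.967), with 306 genes, and PDGFB to NUAK2 (0.994) and PSMA5 (0.992), with 251. PDGFA was closest to TMBIM6 and DCAF12 (0.976 each), with 117 genes, EFNA1 to CATSPERZ (0.964) and DCTPP1 (0.949), with 45, and VEGFA to SULT4A1 (0.951) and KLHL42 (0.948), with 10. Among the 28 pairs of ligands, r was highest for VEGFB with ANGPTL4 (0.962) and lowest for VEGFB with FGF2 (-0.909). All of these values share the same 8 libraries, their depths and their GC slopes.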
